A study of Rattus norvegicus with 8 samples.

Results

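The genes described here encode the MHC class II molecules of the rat and the proteins that assemble and induce them. They were RT1-Da, RT1-Db1, RT1-Ba, RT1-Bb, RT1-DMa, RT1-DMb, the invariant chain Cd74 and the transactivator Ciita. Members were found by gene name or RefSeq accession among the gene probes of the array, without using any measured value. The rule found 7 of the 8 genes, of 35535 gene names on the array, through 12 of its 41012 probes. No probe matched RT1-DMb, and it was not analysed here.

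RNA of 8 kidney allografts was hybridised to 1-colour Agilent arrays, 1 array per graft, in 4 groups of 2 grafts that the series' design text calls biological replicates. In every group a kidney of a male Dark Agouti rat (DA, haplotype RT1a) was placed in a male, MHC-incompatible Lewis rat (LEW, haplotype RT1l) from which both own kidneys had been removed. Grafts were stored cold for 25 min at 4 °C and collected at 24 h. All animals were inbred and weighed 120 to 250 g, and the labels give no age. Recipients of the high-difference group had a donor lighter by 20 to 50% of their own weight and were given no drug. Those of the low-difference group had a donor lighter by 0 to 20%, again with no drug. The anti-IL6R group had the high weight difference and received 500 µg of a neutralising antibody against the interleukin-6 receptor, given once into a vein just after transplantation. The prednisolone group had the high weight difference and received 15 mg/kg of the glucocorticoid prednisolone in the same way. Graft cells therefore carried RT1a genes, and any host leukocytes in the graft carried RT1l genes.

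MHC class II molecules are pairs of an alpha and a beta chain that display peptides from the endosome to CD4 T cells. In the endoplasmic reticulum the invariant chain CD74 fills their groove and guides them to the endosome, where cathepsins cut it and the DM molecule exchanges its last fragment for peptide. Dendritic cells, macrophages and B cells make class II constantly, and interferon-gamma induces it in endothelium and tubular epithelium through CIITA, which binds no DNA itself and docks on factors bound at class II promoters.

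Those factors are RFX at the X box and NF-Y at the Y box, and the promoters of the members are shown because CIITA acts through this pair of elements. RefSeq promoter sequences (build GRCr8) were found for 6 of the 8 genes. Each line gives 71 bases on the gene's strand, 5′ to 3′. Capitals mark GATTGG, which is the letters of a Y box, and GCAAC, the core letters of an X box, or in Cd74 the letters CCAAT.
RT1-Da: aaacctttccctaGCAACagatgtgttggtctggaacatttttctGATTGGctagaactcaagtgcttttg
RT1-Db1: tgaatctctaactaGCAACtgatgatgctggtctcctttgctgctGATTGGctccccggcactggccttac
RT1-Ba: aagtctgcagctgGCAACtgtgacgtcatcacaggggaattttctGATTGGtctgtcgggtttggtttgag
RT1-Bb: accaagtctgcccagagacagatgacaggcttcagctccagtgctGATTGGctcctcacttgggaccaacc
RT1-DMa: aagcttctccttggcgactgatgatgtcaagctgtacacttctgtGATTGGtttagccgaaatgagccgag
Cd74: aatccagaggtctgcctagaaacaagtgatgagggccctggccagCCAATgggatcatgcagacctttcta

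The windows lie at chr20:4515320-4515390 (plus strand) for RT1-Da, chr20:4560218-4560288 (minus) for RT1-Db1, chr20:4576968-4577038 (plus) for RT1-Ba, chr20:4604155-4604225 (minus) for RT1-Bb, chr20:4712375-4712445 (minus) for RT1-DMa and chr18:56526972-56527042 (plus) for Cd74. Both strands of each promoter, from 250 bases before to 50 bases after the start, were searched. GATTGG was present in 5 of the 6 members and in 14.8% of all 33469 promoters in the RefSeq table. Its inner letters ATTGG, which every GATTGG contains, were present in 6 of 6 members and in 37.5% of all promoters. GCAAC was present in 4 of 6 members and in 35.1% of all promoters. In Cd74 the GCAAC lay outside the window shown. A GCAAC followed on the same strand by a GATTGG after 20 to 30 bases was present in 3 of 6 members and in 0.188% of all promoters. The spacing was 27 bases in RT1-Da, 26 in RT1-Db1 and 27 in RT1-Ba. The letters are from the reference genome, and neither the DA nor the LEW sequence was used here.

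On each array 64.5 to 74.0% of the gene spots were well above background, and replicate arrays correlated across probes at r = 0.956 to 0.992. Markers of kidney, such as the proximal tubule receptor Lrp2 and the loop of Henle protein Umod, were well above background on all 8 arrays. Levels below are log2 processed signals minus the 75th percentile of the same array, so that 0 is the level of a probe at that percentile. Arrays of both untreated groups lay on 1 slide with 1 scan time and those of both treated groups on another. Treated against untreated grafts therefore cannot be told apart from slide 2 against slide 1, while high against low difference, and prednisolone against anti-IL6R, each lie within 1 slide.

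By group mean, class II genes were lowest in the untreated high-difference grafts and highest in the anti-IL6R grafts, for all 7 genes measured. No single member passed the test over all genes in any comparison (limma across the 8 arrays, Benjamini-Hochberg adjusted p under 0.05 over 24462 genes), and no other gene did. The group means of each of the 7 genes ran in the order anti-IL6R, low difference, prednisolone, high difference. In bulk tissue, fewer class II-bearing cells and less class II RNA per cell cannot be told apart.

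**Figure D1:**
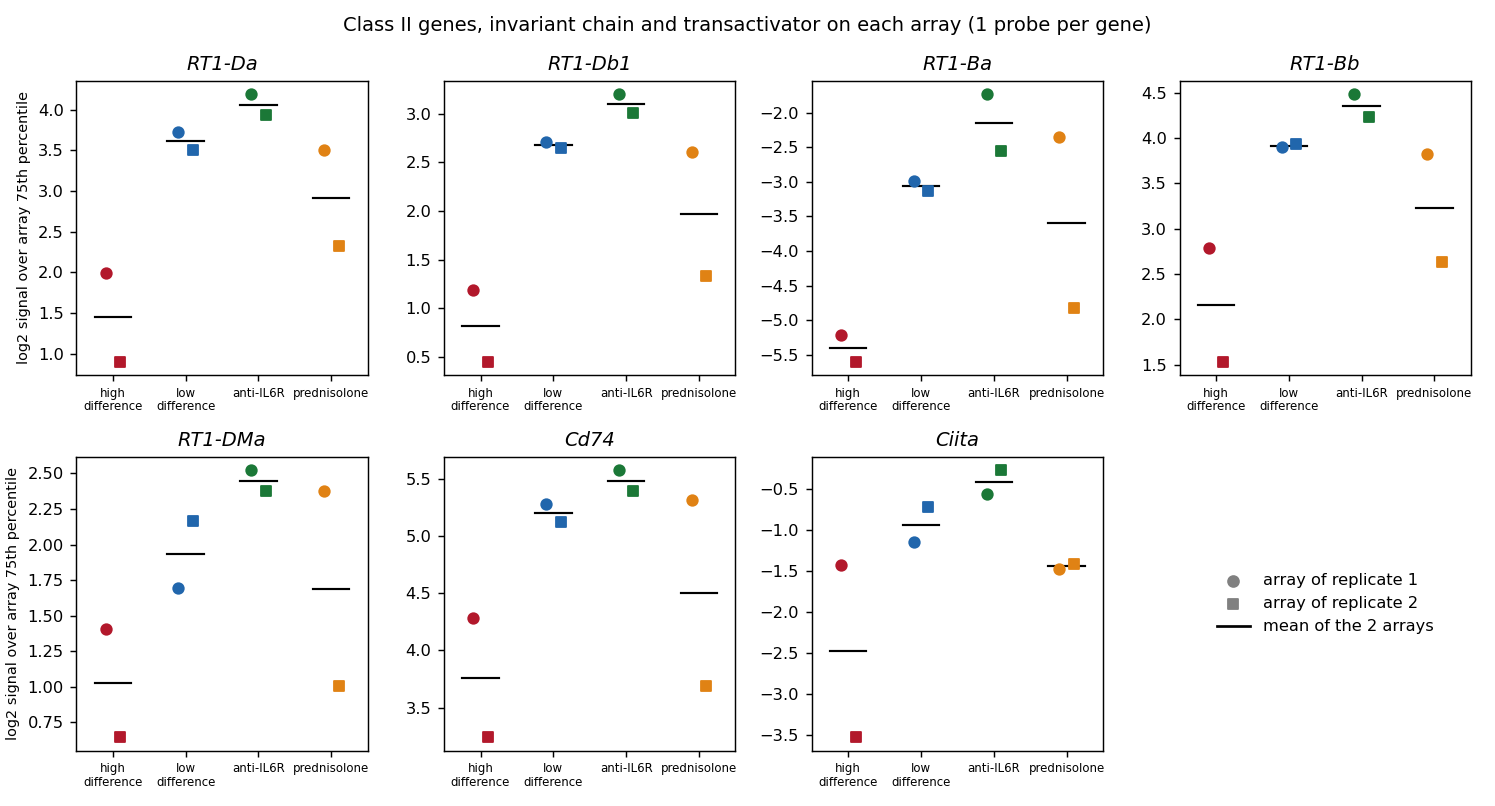
Level of each class II gene on each of the 8 arrays, as log2 processed signal minus the array's 75th percentile (points, 2 grafts a group; bars, group means). The group mean of the high-difference grafts is the lowest and that of the anti-IL6R grafts the highest for every gene, and the 2 prednisolone grafts lie far apart for every gene but Ciita.

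RT1-Da encodes the alpha chain of the D molecule, the rat counterpart of human HLA-DR. Its level was 2.0 and 0.91 in the high-difference grafts, 3.73 and 3.51 in the low-difference grafts, 4.19 and 3.93 after anti-IL6R, and 3.50 and 2.32 after prednisolone. The high-difference grafts were below all others, and the second prednisolone graft was the only one between them and the rest. RT1-Da was 2.16 ± 0.49 (SE) log2 units lower in high- than in low-difference grafts, a 4.48-fold difference (limma adjusted p = 0.304). It was 2.61 ± 0.49 higher after anti-IL6R than in the high-difference grafts, or 6.09-fold (limma adjusted p = 0.175).

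RT1-Db1 encodes the beta chain that pairs with RT1-Da. Its brightest probe read 1.19 and 0.45 in the high-difference grafts, 2.71 and 2.64 in the low-difference grafts, 3.20 and 3.01 after anti-IL6R, and 2.61 and 1.33 after prednisolone. The pattern was that of its partner chain, with both high-difference grafts lowest and both anti-IL6R grafts highest. The level was 1.86 ± 0.45 log2 units lower in high- than in low-difference grafts (3.63-fold; limma adjusted p = 0.308). After anti-IL6R it was 2.29 ± 0.45 above the high-difference grafts (4.88-fold; limma adjusted p = 0.178). That last difference had an adjusted p of 0.0445 in limma when either prednisolone array was left out of the fit, the lowest of a range up to 0.654 over the alternatives run.

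RT1-Ba encodes the alpha chain of the B molecule, the counterpart of human HLA-DQ. Its brightest probe read -5.21 and -5.60 in the high-difference grafts, -2.99 and -3.14 in the low-difference grafts, -1.74 and -2.56 after anti-IL6R, and -2.36 and -4.82 after prednisolone. The spot was not well above background in 1 of the 2 high-difference and 1 of the 2 prednisolone grafts, those with the lower level in each group. RT1-Ba had the largest fitted differences of the 7 genes, 2.34 ± 0.76 log2 units lower in high- than in low-difference grafts (limma adjusted p = 0.311) and 3.26 ± 0.76 higher after anti-IL6R than in high-difference grafts (limma adjusted p = 0.198). The size depended on background correction: with normexp, which models the background and lifts dim signals, these differences were -0.81 and 1.49. The second had an adjusted p of 0.0341 in limma without either prednisolone array, in a range up to 0.666 over the alternatives run.

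RT1-Bb encodes the beta chain that pairs with RT1-Ba. Its levels were 2.79 and 1.53 in the high-difference grafts, 3.90 and 3.93 in the low-difference grafts, 4.48 and 4.24 after anti-IL6R, and 3.82 and 2.63 after prednisolone. Here the lower prednisolone graft lay below the higher of the high-difference grafts. RT1-Bb was 1.75 ± 0.51 log2 units lower in high- than in low-difference grafts (3.37-fold; limma adjusted p = 0.308) and 2.20 ± 0.51 higher after anti-IL6R than in high-difference grafts (4.59-fold; limma adjusted p = 0.198).

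Cd74 is the invariant chain. It read 4.28 and 3.24 in the high-difference grafts, 5.28 and 5.12 in the low-difference grafts, 5.58 and 5.39 after anti-IL6R, and 5.32 and 3.69 after prednisolone. Both high-difference grafts lay below both low-difference and both anti-IL6R grafts, and the prednisolone grafts lay on either side of that gap. The level was 1.44 ± 0.57 log2 units lower in high- than in low-difference grafts (2.72-fold; limma adjusted p = 0.33) and 1.72 ± 0.57 higher after anti-IL6R (3.30-fold; limma adjusted p = 0.234).

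RT1-DMa encodes the alpha chain of DM, the peptide exchanger. Its levels were 1.41 and 0.65 in the high-difference grafts, 1.69 and 2.17 in the low-difference grafts, 2.52 and 2.38 after anti-IL6R, and 2.37 and 1.01 after prednisolone. The fitted difference between the untreated groups was the smallest of the 7 genes. RT1-DMa was 0.90 ± 0.49 log2 units lower in high- than in low-difference grafts, with a 95% confidence interval from -2.08 to 0.27 (limma adjusted p = 0.403). After anti-IL6R it was 1.42 ± 0.49 above the high-difference grafts (2.68-fold; limma adjusted p = 0.239).

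Ciita encodes the transactivator itself. It read -1.43 and -3.53 in the high-difference grafts, -1.15 and -0.72 in the low-difference grafts, -0.57 and -0.27 after anti-IL6R, and -1.48 and -1.42 after prednisolone. Its high-difference grafts were the most unequal of any member, and its prednisolone grafts, which were far apart for every other gene, were nearly equal (SD 0.04). Ciita was 1.54 ± 0.63 log2 units lower in high- than in low-difference grafts (limma adjusted p = 0.337) and 2.06 ± 0.63 higher after anti-IL6R (limma adjusted p = 0.226). Without the first high-difference array, the one with the higher level, the second difference was 3.11 with an adjusted p of 0.0419 in limma, in a range up to 0.658 over the alternatives run.

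Read as a set, the comparison of high- with low-difference grafts asks whether a donor much lighter than the recipient alters the graft early after transplantation. The median difference of the 7 genes was -1.75 log2 units, against 0.07 over all genes tested. All 7 were below 0, as were 44% of all genes. In all 7 genes both high-difference arrays were below both low-difference arrays, as were 23% of all genes tested. An unadjusted p under 0.05 was reached by 6 of the 7, all lower in high-difference grafts, against 6.43% of all genes in that direction, which were 1574 genes, with 2015 higher. Without the second high-difference array the median was -1.13, and without the first it was -2.38.

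The comparison of anti-IL6R with untreated high-difference grafts asks what blocking the interleukin-6 receptor does at the same weight difference. It shares the high-difference arrays with the comparison above, so it is not independent of it. The median of the 7 genes was 2.20 log2 units, against -0.09 over all genes tested. All 7 were above 0, as were 43.2% of all genes. Arrays did not overlap in 7 of 7 genes, all higher after anti-IL6R, as in 23.5% of all genes. All 7 had an unadjusted p under 0.05, against 7.09% of all genes higher after anti-IL6R (1735 genes, with 2598 lower).

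Prednisolone grafts, compared with the same high-difference arrays, had a median of 1.07 log2 units over the 7 genes, against -0.08 over all genes, and all 7 were above 0, as were 42.4% of all genes. Differences ran from 0.66 ± 0.49 for RT1-DMa to 1.81 ± 0.76 for RT1-Ba, with limma adjusted p-values from 0.371 to 0.602. Only RT1-Da, RT1-Db1 and RT1-Ba had both prednisolone arrays above both high-difference arrays, 3 of 7 genes, against 13.9% of all genes tested. An unadjusted p under 0.05 was reached by 2 of the 7, RT1-Da and RT1-Db1, against 4.25% of all genes in that direction (1040 higher, 1853 lower).

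The prednisolone values depended on single grafts. Averaged over the 7 genes after centring each gene, the level was 0.51 in the first prednisolone graft and -0.78 in the second. The corresponding averages were 0.42 and 0.47 in the low-difference grafts, 1.07 and 0.84 after anti-IL6R, and -0.74 and -1.79 in the high-difference grafts. The first prednisolone graft therefore lay near the low-difference grafts and the second at the higher of the high-difference grafts. Without the first, the median prednisolone difference was 0.51 and those of RT1-DMa (-0.018) and Cd74 (-0.069) changed sign. Without the second it was 1.66. Without the first or second high-difference array it was 1.69 or 0.44, and Ciita was at -0.022 without the second.

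Prednisolone was set against anti-IL6R within slide 2, at the same weight difference. The 7 genes were lower after prednisolone, with a median of -1.13 log2 units against 0.01 over all genes tested, of which 48.1% were below 0. Both prednisolone arrays were below both anti-IL6R arrays in 6 of 7 genes, all but RT1-Ba, as in 11.9% of all genes. RT1-Db1 alone had an unadjusted p under 0.05 (-1.14 ± 0.45, limma adjusted p = 1), 1 of 7 against 2.58% of all genes in that direction (630 lower, 201 higher). Ciita differed by -1.03 ± 0.63, with a 95% confidence interval from -2.54 to 0.49, and its gap was alike with either prednisolone array left out. The median was -0.50 without the second prednisolone array and -1.74 without the first.

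**Figure D2:**
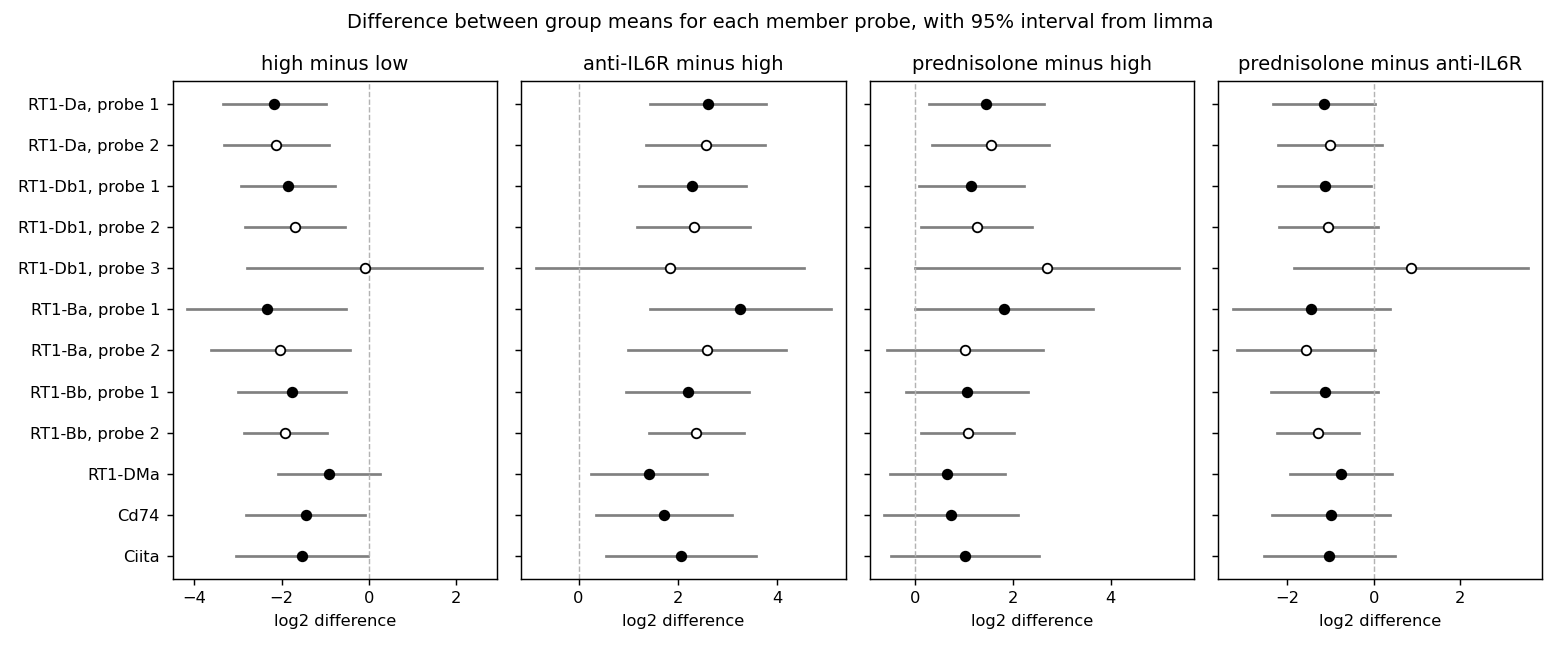
Fitted log2 difference of each probe in each of the 4 comparisons, with 95% confidence intervals from limma; the probe that stands for each gene and its further probes are marked separately. By the probes that stand for them, all 7 genes lie below 0 for high minus low and prednisolone minus anti-IL6R. They lie above 0 for both treated groups minus high. The third RT1-Db1 probe lies above 0 (0.86) for prednisolone minus anti-IL6R and near 0 (-0.09) for high minus low.

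Neighbours in the order of group means were often within their spread. The anti-IL6R arrays were above both low-difference arrays for all 7 genes, by 0.28 log2 units for Cd74 to 0.92 for RT1-Ba. That step also lies between slides. The low-difference arrays did not overlap the prednisolone arrays for RT1-Da, RT1-Db1, RT1-Bb and Ciita, and overlapped them for RT1-Ba, RT1-DMa and Cd74. Of these 7 gaps, only that of Ciita (0.51) was larger than the larger SD of the pair of groups. The share of all genes without overlap was not computed for anti-IL6R against low difference or for low difference against prednisolone. The counts of genes without overlap therefore have no such share beside them here.

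Of the 12 probes, 11 shared this pattern and 1 did not. Across the 8 arrays, levels of the paired probes correlated at r = 0.997 for RT1-Da, 0.969 for RT1-Ba, 0.987 for RT1-Bb and 0.992 for the first and second probes of RT1-Db1. These are descriptions, since the arrays share the 4 groups. The second RT1-Ba probe was not well above background on either high-difference array. Low-difference grafts read at least 1.66-fold and anti-IL6R grafts at least 2.43-fold higher, set against the lowest signal called above background on each array or the probe's own signal, whichever was higher.

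The third RT1-Db1 probe correlated with the first at r = 0.04. It was well above background on both anti-IL6R arrays and the second prednisolone array alone. Its levels were -7.48 and -7.41 in high-difference, -6.54 and -8.16 in low-difference, -5.38 and -5.83 in anti-IL6R and -6.54 and -2.95 in prednisolone grafts. The highest reading was thus in the prednisolone graft that was low for the other RT1-Db1 probes. Whether the probes bind the DA and the LEW allele alike was not tested.

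The genes whose pattern over the 8 arrays was most like the mean of the members were Neurl2, Slfn4, Lpxn, Prodh2, F8 and Id3. Their Pearson r with that mean ran from 0.976 to 0.984, among 10291 named genes above background on every array. Slfn4, a schlafen family gene of myeloid cells, read -2.75 and -3.52 in high-difference, -1.18 and -1.18 in low-difference, -0.59 and -0.78 in anti-IL6R and -1.02 and -3.07 in prednisolone grafts. Prodh2, a hydroxyproline-degrading enzyme of proximal tubule and liver, read 1.80 and 0.90, 2.42 and 2.51, 3.06 and 3.12, and 2.45 and 1.40 in the same order. These genes are known from different cell types. F8 encodes a clotting factor made by endothelium, Id3 a helix-loop-helix inhibitor and Lpxn a leukocyte adaptor of the paxillin family.

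RT1-DOb, the beta chain of the DM inhibitor DO, read -4.20 and -5.02 in high-difference, -3.68 and -3.34 in low-difference, -3.94 and -3.11 in anti-IL6R and -2.98 and -5.63 in prednisolone grafts. It was 1.10 ± 0.83 log2 units lower in high- than in low-difference grafts (limma adjusted p = 0.516) and its prednisolone arrays spanned the range of all the others. Its partner RT1-DOa was not well above background on any array.

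The factors that carry CIITA to the promoter showed no such pattern as a group. Over the 8 measured genes of RFX, NF-Y, CREB and their acetyltransferases, the median difference was 0.07 for high minus low and -0.09 for anti-IL6R minus high. With an unadjusted p under 0.05, 1 of the 8 was lower in high-difference grafts, against 6.43% of all genes, and 1 higher after anti-IL6R, against 7.09%. In both cases this was Nfyc, a subunit of NF-Y, with -0.46 ± 0.19 (limma adjusted p = 0.337) and 0.56 ± 0.19 (limma adjusted p = 0.236). The NF-Y subunit Nfya differed by 0.46 ± 0.24, Creb1 by 0.49 ± 0.33 and the RFX subunit Rfx5 by -0.68 ± 0.75 between high- and low-difference grafts.

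Of the 9 tested genes that lead from interferon-gamma to CIITA, 2 were lower in high- than in low-difference grafts (6.43% of all genes) and 3 higher after anti-IL6R (7.09% of all genes) at an unadjusted p under 0.05. Ifng, the cytokine gene, is in both counts but was not well above background on either high-difference array. Its level elsewhere was too near the background for a fold. Probes had to be well above background in every graft of some group, so Ifng passed only through other groups. Its signs against high difference are therefore not independent of that filter. Socs1, the feedback inhibitor of this pathway, was 0.41 ± 0.25 lower in high- than in low-difference grafts and 0.60 ± 0.25 higher after anti-IL6R (limma adjusted p = 0.279). Usf1, which binds a Ciita promoter, differed by 0.07 ± 0.17 between high- and low-difference grafts.

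Proteases that process the invariant chain went in different directions. Ctss, the cathepsin that makes the last cuts in CD74 in antigen-presenting cells, read 1.25 and 0.50 in high-difference, 2.74 and 3.18 in low-difference, 3.06 and 2.95 in anti-IL6R and 3.72 and 1.76 in prednisolone grafts. It was lowest in both high-difference grafts, by 2.09 ± 0.62 log2 units against low difference (limma adjusted p = 0.308), and its highest graft was the first prednisolone graft. Ctsz was 1.40 ± 0.47 lower in high- than in low-difference grafts (limma adjusted p = 0.313).

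Ctsl and Ctsd, lysosomal proteases of many cell types, had the opposite sign. Ctsl read 8.30 and 8.70 in high-difference, 7.76 and 7.94 in low-difference, 7.49 and 7.62 in anti-IL6R and 7.98 and 7.24 in prednisolone grafts, highest in both high-difference grafts. The difference was 0.65 ± 0.29 against low difference (limma adjusted p = 0.353) and that of Ctsd was 0.33 ± 0.22 (limma adjusted p = 0.476). Over the 12 endosomal genes the median was -0.07 for high minus low. At an unadjusted p under 0.05, 3 of the 12 were lower in high-difference grafts, against 6.43% of all genes.

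Partners of class II at the T cell contact had lower fitted means in high- than in low-difference grafts, in 6 of the 6 genes tested, as in 44% of all genes. At an unadjusted p under 0.05, 2 of the 6 were lower, against 6.43% of all genes. Cd86, a costimulatory ligand of antigen-presenting cells, read -3.14 and -3.27 in high-difference, -1.63 and -1.76 in low-difference, -1.64 and -2.21 in anti-IL6R and -1.67 and -2.12 in prednisolone grafts. The high-difference pair was apart from all other grafts, by 1.51 ± 0.26 log2 units from low difference (limma adjusted p = 0.26). Cd40, which receives help from T cells, was 0.92 ± 0.41 lower (limma adjusted p = 0.354), and the ICOS ligand Icoslg 0.97 ± 0.34 lower (limma adjusted p = 0.316). Cd4 was not well above background in either untreated group, and was at least 1.09-fold higher after anti-IL6R than in high-difference grafts. The median of the 6 genes tested was -0.94 for high minus low, 0.98 for anti-IL6R minus high and 0.91 for prednisolone minus high. Cd4 is among these 6 and passed the filter on dim probes only through a treated group. Its sign for anti-IL6R minus high (1.92, the highest of the 6) is therefore not independent of that filter. Cd28, Cd80 and Pdcd1lg2 were not well above background on any array.

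CD74 is also the receptor of the cytokine MIF, and signals with CD44 or chemokine receptors. Mif read 7.12 and 6.98 in high-difference, 6.98 and 6.81 in low-difference, 6.71 and 6.44 in anti-IL6R and 6.33 and 7.12 in prednisolone grafts, a narrow range with no step as in Cd74. Cd44 had the sign opposite to Cd74, 1.53 ± 0.71 log2 units higher in high- than in low-difference grafts (limma adjusted p = 0.359). Cxcr4 was 1.22 ± 0.53 lower (limma adjusted p = 0.35) and Ackr3 1.59 ± 0.34 lower (limma adjusted p = 0.301), while the MIF homologue Ddt differed by -0.44 ± 0.37. The receptor gene Cxcr2 did not pass the filter on dim probes.

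**Figure D3:**
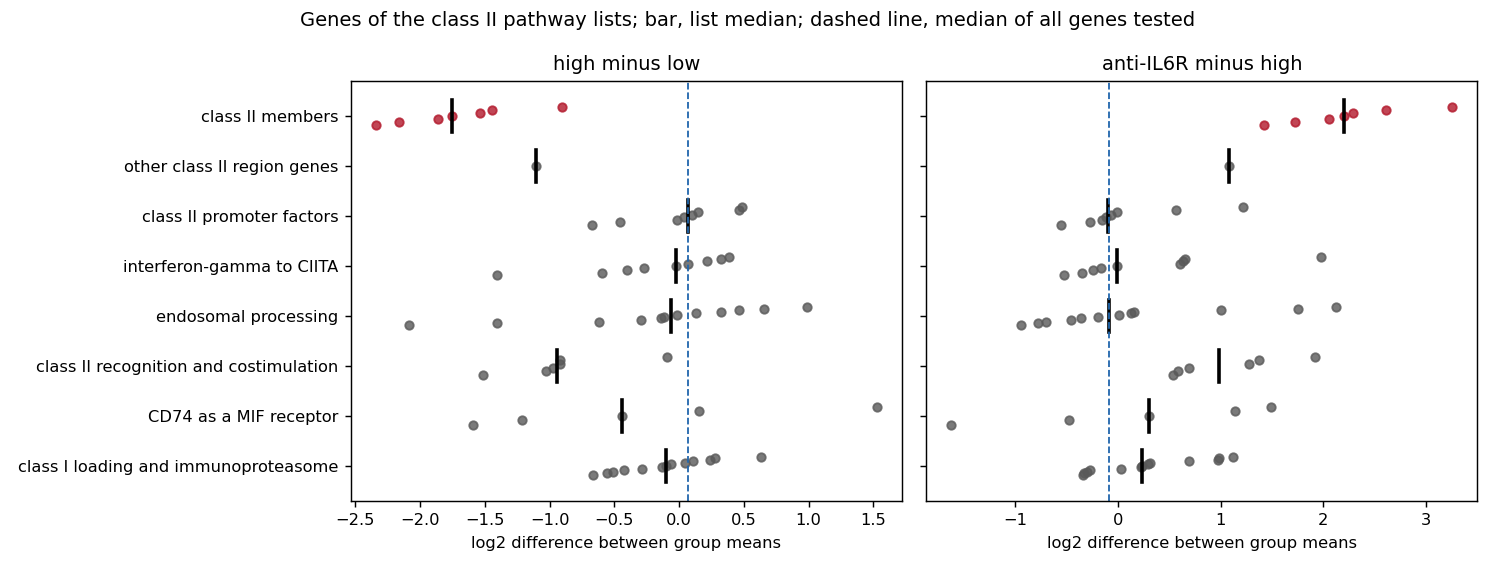
Fitted log2 difference of every tested gene of the class II members and of the related lists for high minus low and anti-IL6R minus high (points), with the median of each list (bars) and of all genes tested (dashed line). Class II members lie together away from 0, and the tested recognition and costimulation genes all lie on the same side of 0 as the members. Promoter factors, endosomal genes and class I genes lie on both sides of it.

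Class I presentation, which displays cytosolic peptides to CD8 T cells, had medians nearer 0. Over 13 genes of class I loading and the immunoproteasome the median was -0.10 for high minus low, 0.23 for anti-IL6R minus high, 0.06 for prednisolone minus high and -0.41 for prednisolone minus anti-IL6R. For anti-IL6R minus high, 9 of the 13 were above 0 and 4 below, while 43.2% of all genes were above 0. These differences ran from -0.34 to 1.12. B2m, the light chain of class I, read 6.31 and 6.48 in high-difference, 7.02 and 6.88 in low-difference, 7.21 and 6.95 in anti-IL6R and 6.87 and 6.46 in prednisolone grafts. The order was that of the class II genes, with a smaller step of 0.56 ± 0.22 log2 units between high and low difference (limma adjusted p = 0.328). The immunoproteasome subunit Psmb9 was 0.51 ± 0.38 and the peptide transporter Tap1 0.66 ± 0.47 lower in high- than in low-difference grafts. Calr, a chaperone of class I, differed most after prednisolone, at -0.83 ± 0.21 against high difference (limma adjusted p = 0.328).

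Leukocyte markers also differed between the groups, though not all in the same direction. Of the 7 monocyte and macrophage markers tested, 6 had a fitted difference below 0 for high minus low, as had 44% of all genes. The median was -1.16 log2 units, and 2 of the 7 were lower at an unadjusted p under 0.05, against 6.43% of all genes. For anti-IL6R minus high, 6 of the 7 were above 0, as were 43.2% of all genes, with a median of 2.0. At that p, 4 of the 7 were higher, against 7.09% of all genes. The receptor Csf1r read -2.42 and -3.21 in high-difference, -1.03 and -0.43 in low-difference, -0.19 and -0.55 in anti-IL6R and -0.17 and -1.48 in prednisolone grafts. Cd14, the lipopolysaccharide coreceptor, was the exception for high minus low, at 0.39 ± 0.62. The summed linear levels of all 8 measured markers ranged from 9.56 to 12.7 times the 75th percentile in high-difference, 28.4 to 39.3 in low-difference, 37.5 to 56.8 in anti-IL6R and 17.2 to 63.9 in prednisolone grafts. The lysozyme gene Lyz2 weighed most in these sums.

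The sum of 3 pan-leukocyte markers was 8.05 to 12.9 in high-difference, 22.5 to 29.6 in low-difference, 22.6 to 33.3 in anti-IL6R and 11.9 to 34.2 in prednisolone grafts. That of 7 T and NK cell markers was 0.49 to 0.51, 1.40 to 1.48, 1.45 to 1.76 and 0.62 to 1.49 in the same order, with 2 of the 7 above background on all arrays. All 7 of the latter had fitted differences below 0 for high minus low, as had 44% of all genes, with a median of -1.65. Cd3e was well above background on 2 arrays and Cd2, Cd8a and Klrk1 on 5, and all read -6.6 or lower in high-difference grafts. Their signs and that median are therefore not independent of the filter on dim probes. In each of these 3 lists the summed level of the high-difference grafts was below that of both low-difference and both anti-IL6R grafts, and the second prednisolone graft was the lower of its pair. The part of these cells in the class II differences was not tested.

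Of 4 B cell genes measured, Ms4a1 and Blk were not well above background on any array, and the sum of all 4 stayed between 0.03 and 0.11. Dendritic cell markers were mixed, with Zbtb46 not well above background on any array. The tyrosine kinase receptor Flt3 read -5.28 and -6.47 in high-difference, -4.69 and -4.65 in low-difference, -5.00 and -4.02 in anti-IL6R and -5.25 and -4.86 in prednisolone grafts. The homing receptor Ccr7 was not well above background on either high-difference array, and was at least 1.28-fold higher after anti-IL6R. Cd1d1 and Batf3 differed by 0.32 ± 0.25 and 0.65 ± 0.79 for high minus low. Over the 4 tested markers the median was -0.44 for high minus low and 0.66 for anti-IL6R minus high. At an unadjusted p under 0.05, 2 of the 4 were lower in high-difference grafts, against 6.43% of all genes. After anti-IL6R, 2 of the 4 were higher at that p, against 7.09% of all genes. Ccr7 is in both counts, and it passed the filter on dim probes only through other groups than high difference. The linear sum of the list, 4.57 to 5.47 in high-difference and 3.89 to 3.95 in low-difference grafts, is mostly the bright Cd1d1 probe. Neutrophil markers had a median of 0.33 for high minus low, with 1 of the 3 tested below 0, as were 44% of all genes. For anti-IL6R minus high all 3 were above 0, as were 43.2% of all genes, with a median of 1.36. Csf3r, the highest of these at 1.66, was well above background on 3 arrays alone and read -6.80 and -7.55 in high-difference grafts. Its sign is therefore not independent of the filter on dim probes. The sum of 5 neutrophil markers was 0.23 to 0.44 in high-difference, 0.15 to 0.20 in low-difference, 0.35 to 0.65 in anti-IL6R and 0.20 to 2.03 in prednisolone grafts.

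Markers of the kidney's own cells differed as well. Endothelial markers, of cells that interferon can induce to bear class II, summed to 33.1 to 45.4 in high-difference, 58.2 to 64.6 in low-difference, 56.6 to 64.6 in anti-IL6R and 56.3 to 63.0 in prednisolone grafts. Markers of the nephron beyond the proximal tubule (loop, distal tubule, collecting duct) summed to 241 to 352, 490 to 725, 354 to 546 and 225 to 562 in the same order. In 6 of these 6 genes both high-difference arrays were below both low-difference arrays, against 23% of all genes, with a median of -1.52 for high minus low and 0.95 for anti-IL6R minus high. Proximal tubule markers summed to 207 to 406, 356 to 451, 369 to 411 and 319 to 364, and podocyte markers to 31.9 to 39.4, 47.4 to 52.9, 37.9 to 58.6 and 49.2 to 54.3. The sum of the 7 class II genes was 17.3 to 35.7, 72.9 to 77.5, 90.3 to 104 and 29.1 to 77.1. The part of these cell types in the class II differences was not tested.

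**Figure D4:**
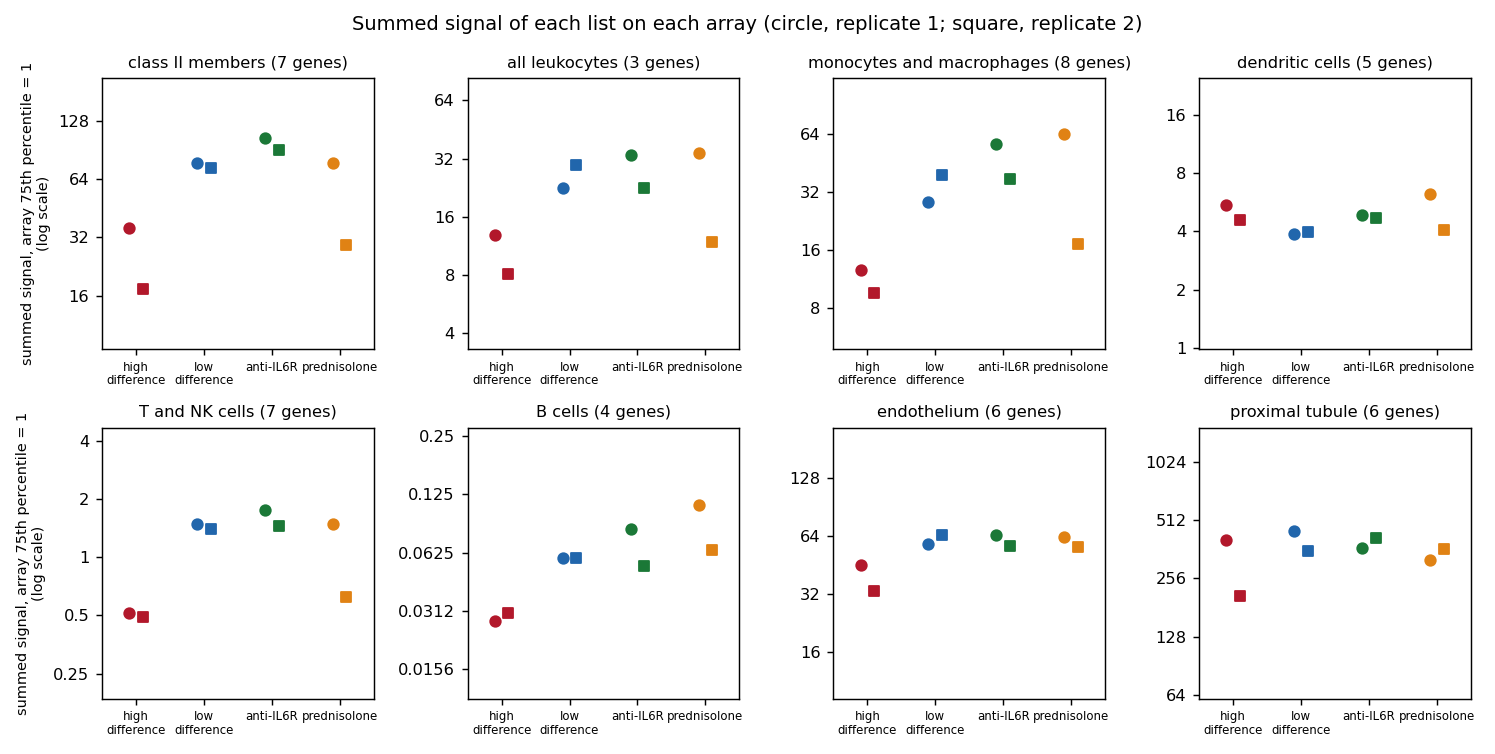
Summed linear level of the class II members and of 7 marker lists on each of the 8 arrays, relative to the array's 75th percentile, on a log axis. Class II, macrophage, pan-leukocyte and T and NK cell sums are lower in both high-difference grafts than in both low-difference and both anti-IL6R grafts. So are the B cell sum, of mostly dim genes, and the endothelial sum. The dendritic cell sum, mostly the Cd1d1 probe, and the proximal tubule sum are not.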

How the data were processed

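Each scanner file held 1 Cy3 array, and per the file headers Agilent Feature Extraction 9.5.1.1 had read it. The deposited processed intensity of each spot, already background-subtracted by that software, was the starting value; 1 µg of total RNA had been amplified and labelled per the labels' protocols. A deposited value table held the same intensities multiplied by 1 factor per array and served as an alternative. Control spots and outlier-flagged spots were dropped, replicated spots of 263 probes averaged, log2 taken, and the 75th percentile of each array subtracted. Probes had to be well above background in every graft of some group, and the probe with the highest mean stood for its gene. Probes were named by the files and by RefSeq (GRCr8), through the accession for 10735, the symbol for 5577 and a synonym for 3730 of 41012. The 4 groups were fitted together in limma 3.58.1 (R 4.3.3), with 4 residual degrees of freedom and Benjamini-Hochberg adjustment over 24462 genes. The fit was tested on simulated data.

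Named were all members, all genes of related lists of 6 or fewer, otherwise the 4 with the smallest unadjusted p, and the 6 genes most alike in pattern; some of these are not reported here. Irrespective of these rules, the members and lists were chosen with earlier results of these data known. The number of arrays limits the precision: an exact permutation test of 2 against 2 arrays cannot go below p = 0.333, two-sided. Alternatives were normexp, quantile and median scaling, the value table, other filters and probe rules, a variance trend, the compared groups alone, a replicate block and each array left out.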

Additional observations from a re-analysis of the deposited data

How the results depend on the processing

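Under 10 processing alternatives, the 276 differences of single members all kept their direction and none passed the threshold. RT1-Ba had no value under the strictest filter, for probes above background on all arrays. With 1 array left out, its lone partner being taken to vary like the other groups, 221 of 224 kept their direction and 5 passed the threshold. The 3 that reversed, all prednisolone minus high, were Ciita without the second high-difference array (range over arrays left out -0.022 to 2.08), and without the first prednisolone array RT1-DMa (-0.018 to 1.35) and Cd74 (-0.069 to 1.56). The cause was not tested.

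The count of genes called over the whole array, 0 in each comparison by limma on 75th percentile scaling, became 3 for high minus low, 7 for anti-IL6R minus high, 4 for prednisolone minus high and 2 for prednisolone minus anti-IL6R under quantile normalization. Under median scaling it was 1 for high minus low and 1 for anti-IL6R minus high. With 1 array left out it ranged from 0 to 39, 0 to 169, 0 to 224 and 0 to 130 in the same order of comparisons. The cause was not tested.

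The replicate numbers did not pair the grafts: deviations of same-numbered arrays correlated at -0.35 to 0.37 over the 6 pairs of groups. With the replicate number as a block, 0 genes were called in each comparison. The median class II difference ranged over arrays left out from -2.38 to -1.13, 1.57 to 2.83, 0.44 to 1.69 and -1.74 to -0.50. Signal over background limits RT1-Ba, Ifng, Cd4 and the third RT1-Db1 probe. The median of all genes moved by over 0.1 without the filter on dim probes, to 0.18 for high minus low, and with normexp, to -0.22 for anti-IL6R minus high.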

Other observations

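Further probes described in the files as class II fell outside the rule for members. A probe described as a class II alpha chain fragment (TC544794) was well above background on all arrays and read 0.30 and 0.52 in high-difference, 0.60 and 0.06 in low-difference, 0.66 and 0.13 in anti-IL6R and 0.19 and 0.70 in prednisolone grafts. It had none of the step seen in the members. A probe similar to an HLA SB beta chain (XM_228010) read -2.92 and -3.17 in high-difference, -3.18 and -3.66 in low-difference, -2.98 and -3.36 in anti-IL6R and -3.27 and -3.65 in prednisolone grafts, again with no such step.

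A probe for a class II antigen (NP516919) read -4.80 and -4.77 in high-difference, -3.52 and -3.65 in low-difference, -1.80 and -2.69 in anti-IL6R and -2.69 and -4.75 in prednisolone grafts. The NP516920 probe read -5.34 and -6.02, -4.0 and -4.26, -3.63 and -3.38, and -4.42 and -4.72 in the same order. The NP516922 probe read -5.46 and -6.57, -3.94 and -4.14, -3.77 and -3.61, and -4.45 and -5.13. All 3 had both high-difference grafts below both low-difference and both anti-IL6R grafts. A probe for an RT1-D beta chain of haplotype k (AJ003232) was well above background on 2 arrays and read -6.53 and -6.81, -6.32 and -6.47, -5.04 and -5.51, and -6.04 and -7.30. The genes these probes report were not identified here.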
